A study of Homo sapiens with 16 samples.

Results

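The untreated NCI-H1944 cells labelled as a double knockout of STING and MAVS (DKO) were compared with the untreated cells labelled as a MAVS knockout (MAVSsg), across all genes. NCI-H1944 is an established human lung adenocarcinoma line. The members are the 4 libraries of these 2 groups, 2 of each, out of 16 in the series, picked by label and not by any measured value. By the labels, both groups carry a disrupted MAVS gene and differ in the disruption of STING. Both were given DMSO for 48 h, which was then washed out, followed by 24 h of culture. The other 12 libraries are a control guide (SCR, labelled WT), a STING guide (STINGsg), and all 4 genotypes after a 48 h pulse of 100 nM BAY-1217389 (MPS1i), which blocks MPS1, a kinase of the spindle checkpoint. The labels do not say whether a line is 1 clone or a pool of edited cells, nor whether replicates were separate cultures. The p-values below therefore speak only of how far replicate libraries scatter, which may be technical. That scatter was estimated from all 16 libraries together and not from the 4 compared libraries alone. A difference between 2 lines in STING guide cannot be told apart from any other difference between those lines.

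STING is an adaptor in the endoplasmic reticulum that is switched on when the sensor cGAS meets DNA in the cytosol. MAVS is an adaptor on mitochondria that is switched on when RIG-I (listed under its older symbol DDX58) or MDA5 (gene IFIH1) meets double-stranded RNA. Both adaptors recruit the kinase TBK1 and the factor IRF3, which turn on interferons and chemokines. Secreted interferon then acts through JAK kinases and a complex of STAT factors and IRF9 on the interferon-stimulated genes, whose promoters often hold the interferon response element.

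Total counts were 25567196 and 35839036 in the DKO libraries and 27610499 and 19893784 in the MAVSsg libraries, within the series' range of 19893784 to 49769938. Replicates correlated at 0.9952 in DKO and 0.9958 in MAVSsg (Pearson, log2 CPM across genes, which are not independent replicates), within the 0.9949 to 0.9973 of the 8 groups. The chi-square per gene between replicates was 9.44 in DKO, the highest of the 8 groups, and 2.8 to 6.09 in the other 7. This measure grows with depth, but the SCR libraries after MPS1i, at 36769058 and 45854868 counts, were both deeper than either DKO library and gave 4.8. No 2 replicates were identical. Of 60612 listed genes, 17950 had enough counts to be tested. Levels are given as CPM, a count relative to the library total, scaled for composition, with the first replicate first. The word called marks genes with a Benjamini-Hochberg adjusted p under 0.05 over all 17950 genes (edgeR, quasi-likelihood F-test), and the number after ± is a standard error. As to the cells themselves, 9 of 20 immune cell markers had 0 counts in all 4 libraries and 0 of the 6 tested ones were called by edgeR, DESeq2 or limma-voom, with 0 at an unadjusted p under 0.05 in edgeR. Their summed level was 119 and 106 CPM in DKO and 110 and 97.0 CPM in MAVSsg, most of it from CD68, a lysosomal protein of macrophages that other cells also make. Of 26 lung epithelium genes 13 were tested and 8 had 0 counts in all 4 libraries, among them NKX2-1 and SFTPB, typical of lung adenocarcinoma. Other members were present, here named after their values were seen. ABCA3 had 109 and 141 counts in DKO and 111 and 87 in MAVSsg, and HOPX 171 and 250 against 147 and 93. The epithelial factor FOXA1, also named after its values were seen, stood at 56.8 and 62.0 CPM in DKO and 55.7 and 60.6 CPM in MAVSsg.

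The targeted genes were checked first. STING1 (ENSG00000184584, chr5:139475533-139482935, GRCh38), which encodes STING, stood at 4.90 and 4.83 CPM in DKO and 10.0 and 10.8 CPM in MAVSsg. Both DKO libraries lay below both MAVSsg libraries, and STING1 fell by 1.09 ± 0.11 on the log2 scale (adjusted p = 6.4e-08 in edgeR's test). MAVS (ENSG00000088888, chr20:3846799-3876123) stood at 222 and 208 CPM in DKO and 195 and 196 CPM in MAVSsg, a difference of 0.14 ± 0.045 whose call (adjusted p = 0.041) was lost without DKO replicate 1 (0.29), MAVSsg replicate 1 (0.17) or MAVSsg replicate 2 (0.15). The SCR libraries stood at 189 and 183 CPM, so the MAVS transcript does not check the MAVS label, and a small edit can leave the transcript in place. TTK, the gene of MPS1, stood at 62.5 and 70.5 CPM in DKO and 60.5 and 62.0 CPM in MAVSsg and was not called (0.12, 95% interval -0.03 to 0.27).

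The largest differences were falls of interferon-stimulated genes. All 52 tested members of the interferon-stimulated list had lower fitted values in DKO, and 50 of them were called lower, 39 by at least 2-fold. The background is 8.21% of all tested genes called lower and 7.93% called higher. The median log2 fold change of the list was -1.84, against 0.005 over all genes. GBP2 (-0.28) and GBP3 (-0.08), which encode guanylate-binding proteins, were the 2 that did not pass; they are named after their values were seen. In bulk RNA, fewer cells making a transcript and less of it per cell cannot be told apart. The summed level of the list was 1543 and 1543 CPM in DKO and 4647 and 4450.2 CPM in MAVSsg, so the groups stood apart by far more than the replicates.

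The promoters of the list's genes with the smallest adjusted p are shown because their DNA carries the interferon response element core. The sequences are the 250 bases before the start of transcription, from RefSeq (GRCh38.p14), 5′ to 3′ on the gene's strand, with matches on either strand in capitals. The core searched for was GAAA, then 2 bases of any kind, then GAAA. IFI44 and IFI27 have 2 listed starts each, of which 1 is shown, picked for the most matches to this core. OAS2 has no entry.

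IFI44L, chr1:78620198-78620447 (+): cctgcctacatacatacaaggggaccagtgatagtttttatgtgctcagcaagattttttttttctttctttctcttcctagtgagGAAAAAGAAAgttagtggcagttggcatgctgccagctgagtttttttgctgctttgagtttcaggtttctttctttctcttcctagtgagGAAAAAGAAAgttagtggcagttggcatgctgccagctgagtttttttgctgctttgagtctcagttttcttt

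OAS3, chr12:112938224-112938473 (+): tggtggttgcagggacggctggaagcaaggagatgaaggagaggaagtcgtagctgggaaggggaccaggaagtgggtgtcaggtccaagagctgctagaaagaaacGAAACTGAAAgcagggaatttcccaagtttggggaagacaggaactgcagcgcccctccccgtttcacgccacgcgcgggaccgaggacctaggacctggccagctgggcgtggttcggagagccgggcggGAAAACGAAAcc

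IFI44, chr1:78649539-78649788 (+): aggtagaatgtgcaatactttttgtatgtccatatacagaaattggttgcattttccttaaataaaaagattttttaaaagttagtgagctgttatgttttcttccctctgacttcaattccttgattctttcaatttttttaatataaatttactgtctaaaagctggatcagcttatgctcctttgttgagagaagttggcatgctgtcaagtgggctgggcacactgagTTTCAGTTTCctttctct

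IFI27, chr14:94110486-94110735 (+): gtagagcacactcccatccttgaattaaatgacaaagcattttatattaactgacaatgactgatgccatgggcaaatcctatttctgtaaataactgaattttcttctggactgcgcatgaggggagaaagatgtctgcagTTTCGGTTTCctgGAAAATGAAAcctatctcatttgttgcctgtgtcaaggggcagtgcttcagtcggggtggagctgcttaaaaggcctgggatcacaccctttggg

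IFI44L held 2 matches, both inside a run of 85 bases that occurs 2 times in the window. OAS3 and IFI27 held 2 matches each and IFI44 held 1. Of the 39 list members with a promoter entry, 25 (64.1%) held at least 1 match, against 427 (3.59%) of the 11897 tested genes with an entry and 3.02% of all 35116 windows. Among genes called at least 2-fold lower but outside the list, 11 of 69 held it (15.9%), and among those at least 2-fold higher, 5 of 86 (5.81%). An NF-kB-like motif, GGGA, then 4 bases of any kind, then CC, was present in 35.9% of the list, 33.4% of tested genes and 22.6% of all windows. The 2 motifs were counted separately and may overlap. A gene counted once, by any of its listed starts, while the share of all windows took each window on its own. A match is a description of letters and not evidence of binding.

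Antiviral effectors showed the largest falls. IFI27, a mitochondrial protein gene of the interferon response, stood at 1.49 and 0.916 CPM in DKO and 42.6 and 37.3 CPM in MAVSsg. The groups were far apart, with a log2 fold change of -5.11 ± 0.12 (adjusted p = 8.1e-21 in edgeR's test), the lowest value among called protein-coding genes averaging 1 CPM or more. MX1, a dynamin-like GTPase that blocks viruses, stood at 9.33 and 10.8 CPM in DKO and 239.6 and 225 CPM in MAVSsg (-4.51 ± 0.089, adjusted p = 2.6e-17). IFIT1, which binds viral RNA lacking cap methylation, stood at 5.66 and 7.08 CPM against 132 and 111 CPM (-4.24 ± 0.12). In each of these genes the DKO libraries lay far below both MAVSsg libraries.

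IFI44L and IFI44, 2 neighbouring genes on chromosome 1, fell by 4.33 ± 0.07 and 4.05 ± 0.094 on the log2 scale. IFI44L stood at 6.46 and 7.02 CPM in DKO and 137 and 135 CPM in MAVSsg. OAS2 and OAS3 make the second messenger that activates RNase L. OAS2 stood at 10.8 and 10.7 CPM against 151 and 139 CPM (-3.75 ± 0.062), and OAS3 at 71.7 and 71.5 CPM against 299 and 291 CPM (-2.04 ± 0.046). The ubiquitin-like modifier ISG15 stood at 6.16 and 4.58 CPM against 56.4 and 41.2 CPM (-3.22 ± 0.2). HERC5, the ligase that attaches ISG15, stood at 0.65 and 0.611 CPM against 12.3 and 12.8 CPM (-4.31 ± 0.13).

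Some of the largest falls rested on few counts or on unequal MAVSsg replicates. RSAD2, the antiviral enzyme viperin, stood at 11.1 and 3.86 CPM in the 2 MAVSsg libraries and 0.344 and 0.389 CPM in DKO (-4.41 ± 0.62). MX2 stood at 9.16 and 4.57 CPM in MAVSsg and 0.344 and 0.167 CPM in DKO (-4.87 ± 0.44). GBP4 had 2 and 3 counts in the DKO libraries and 69 and 28 in the MAVSsg libraries, a ratio of 0.0393 of the scaled counts (95% counting interval 0.0125 to 0.095, exact binomial). IFI6 and XAF1, regulators of cell death, fell by 4.38 ± 0.21 and 4.58 ± 0.18 on the log2 scale.

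**Figure D1:**
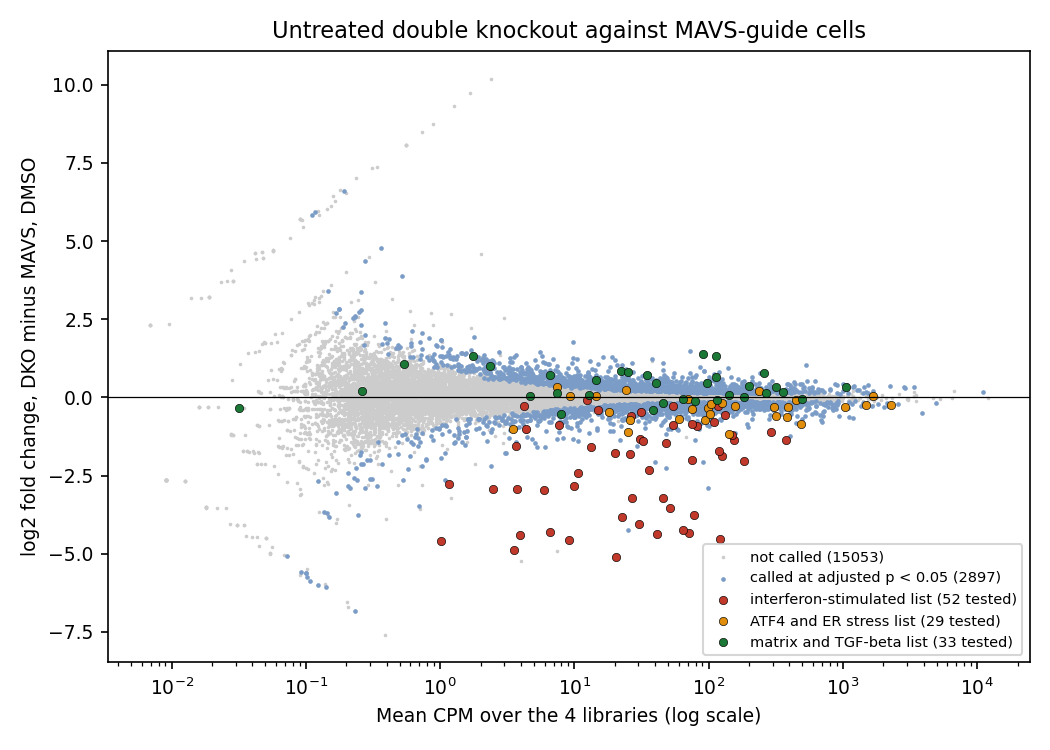
Log2 fold change of DKO minus MAVSsg under DMSO (y axis) against mean CPM over the 4 libraries (x axis, log scale) for 17950 genes, with 3 gene lists in colour. The interferon-stimulated genes lie below 0 at all levels, the ATF4 and ER stress genes mostly just below it and the matrix genes mostly above it.

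Within the interferon-stimulated list, the transcription factor genes IRF7 (-2.97), IRF9 (-1.79) and STAT2 (-0.85) were called lower; these 3 are named after their values were seen. Of the 17 tested genes of interferon receptors and the JAK-STAT cascade outside that list, 2 were higher and 1 lower, with a median of 0.00. JAK1, the kinase of most interferon receptors, rose from 259.8 and 254 CPM in MAVSsg to 325 and 335 CPM in DKO (0.36 ± 0.044). The calls of IFNAR2 (0.30) and IFNGR1 (-0.16), which encode receptor chains, did not hold with 1 library left out: IFNAR2 had an adjusted p of 0.34 without MAVSsg replicate 1 and 0.22 without DKO replicate 2, and IFNGR1 0.4 without MAVSsg replicate 2 and 0.3 without DKO replicate 1.

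Interferon genes themselves were near 0 in both groups. IFNB1 had 0 and 1 counts in DKO and 1 and 0 in MAVSsg, and the lambda interferon gene IFNL1 had 0 counts in both DKO libraries and 1 and 0 in MAVSsg. No difference was detectable in them at this depth, since 0 counts in a library still allow 3. IFNL2 and IFNL3, which may share reads, were as low. Of the 11 tested interferon and chemokine genes 3 were called lower and 0 higher. CCL5, which attracts T cells, stood at 2.87 and 2.25 CPM in DKO and 48.9 and 47.2 CPM in MAVSsg (-4.26 ± 0.092). The death ligand gene TNFSF10 stood at 4.25 and 3.78 CPM against 9.02 and 7.46 CPM (-1.06 ± 0.12). CXCL10 had 0 counts in both DKO libraries and 9 and 2 in MAVSsg. The MAVSsg mean was 2.15-fold a floor of 3 counts per DKO library, which leaves out the scatter of the MAVSsg counts. MAVSsg replicate 2 alone, at 0.101 CPM, lay between the floors of the DKO libraries (0.115 and 0.0833 CPM). The call of CXCL10 was lost without MAVSsg replicate 1.

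Nucleic acid sensors that interferon itself raises were lower, while the shared kinase gene TBK1 and factor gene IRF3 were not called. In the RIG-I and MAVS list, 9 of 20 tested genes were lower and 2 higher, with a median of -0.20. DDX58 stood at 32.9 and 37.8 CPM in DKO and 148 and 146 CPM in MAVSsg (-2.05 ± 0.068, adjusted p = 3.8e-16 in edgeR's test). IFIH1 stood at 16.4 and 16.9 CPM against 82.1 and 77.2 CPM (-2.26 ± 0.08). Both sensors were separated from MAVSsg by more than any spread between replicates. EIF2AK2, the kinase PKR that halts translation on double-stranded RNA, fell by 1.22 ± 0.049 on the log2 scale, the ubiquitin ligase gene TRIM25 by 0.95 ± 0.044 and the RNA editing enzyme gene ADAR by 0.80 ± 0.039. ADAR stood at 517 and 511 CPM in DKO and 893 and 895 CPM in MAVSsg.

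In the cGAS-STING list, 4 of 20 genes were lower and 1 higher. Besides STING1, the DNA sensor gene IFI16 stood at 94.6 and 103 CPM in DKO and 217 and 219 CPM in MAVSsg (-1.14 ± 0.046), and SAMHD1, which breaks down deoxynucleotides, at 13.5 and 15.8 CPM against 42.7 and 45.0 CPM (-1.56 ± 0.071). CGAS stood at 37.7 and 37.1 CPM in DKO and 32.7 and 31.5 CPM in MAVSsg. Its groups did not overlap, but the difference was not called (0.22 ± 0.085, adjusted p = 0.082 in edgeR's test), and it was called without the filter on low counts (0.028) and with libraries thinned to equal totals (0.029). IRF3 (0.05, 95% interval -0.16 to 0.26) and TBK1 (-0.04, 95% interval -0.17 to 0.09) were not called. The calls of TRIM56 (-0.23) and ENPP1 (0.62), the enzyme that degrades the messenger of cGAS, were lost without 1 library, TRIM56 without MAVSsg replicate 2 (adjusted p = 0.16) or DKO replicate 1 (0.092), and ENPP1 without MAVSsg replicate 1 (0.36) or DKO replicate 2 (0.25).

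**Figure D2:**
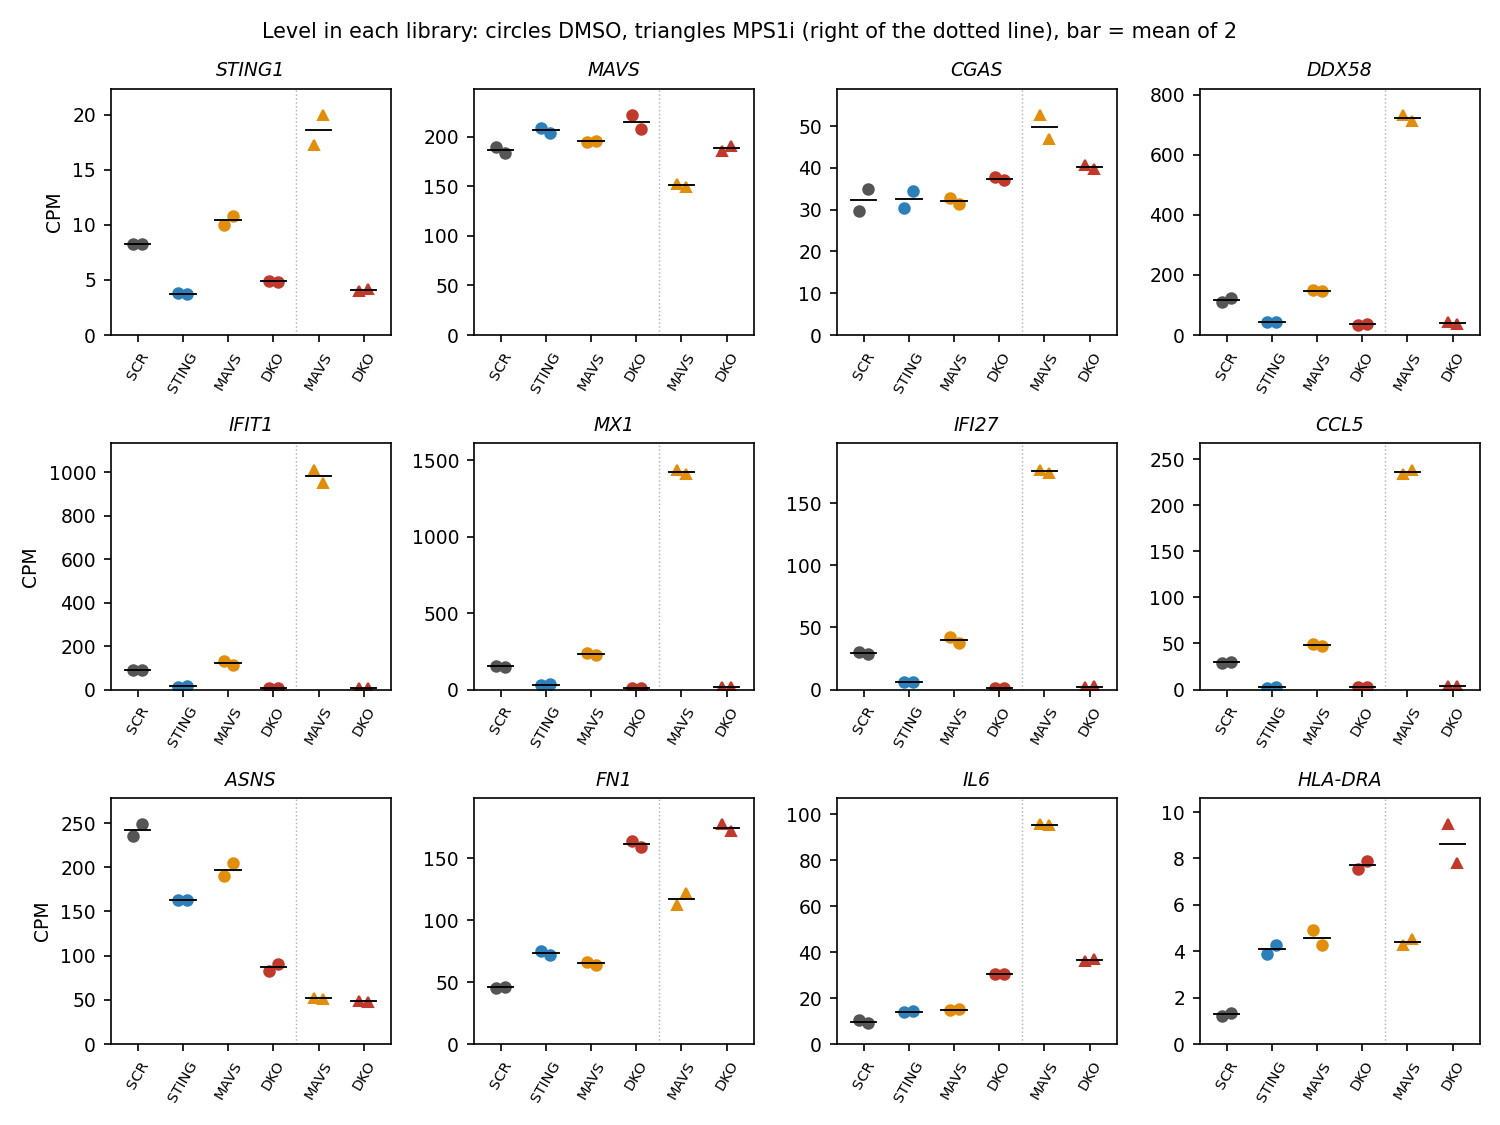
CPM (y axis) of 12 genes in each library, by line and treatment, with circles for DMSO, triangles for MPS1i and a bar at the mean of 2. Under DMSO the DKO libraries lie below the MAVS libraries for STING1, DDX58, IFIT1, MX1, IFI27, CCL5 and ASNS and above them for FN1, IL6 and HLA-DRA.

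Antigen presentation genes of MHC class I were lower by smaller amounts. Of 20 tested members 13 were lower and 1 higher, with a median of -0.40, and the lower count was 9 to 14 when 1 library was left out. B2M, the shared light chain, stood at 356 and 373 CPM in DKO and 563 and 534 CPM in MAVSsg (-0.59 ± 0.049, adjusted p = 1.7e-09 in edgeR's test). HLA-B stood at 19.0 and 15.8 CPM against 28.8 and 26.5 CPM (-0.68 ± 0.078); HLA genes are alike and may share reads. In B2M and HLA-B the replicates lay closer together than the lines. The peptide transporter gene TAP2 fell by 0.59 ± 0.056 on the log2 scale and the proteasome activator genes PSME2 and PSME1 by 0.60 ± 0.064 and 0.40 ± 0.063.

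MHC class II genes were higher, and most of these calls rested on single libraries. Of 10 tested members 5 were called higher and 0 lower, with a median of 0.65, but with 1 library left out only 1 to 3 were. HLA-DRA, the main class II alpha chain, stood at 7.53 and 7.88 CPM in DKO and 4.90 and 4.26 CPM in MAVSsg (0.74 ± 0.15, adjusted p = 0.0012 in edgeR's test). The other 4 (CIITA, the master regulator of the class, CD74, HLA-DMA and HLA-DOA) each lost the call without 1 library, all of them without MAVSsg replicate 1, where adjusted p was 0.2, 0.13, 0.32 and 0.12 in that order.

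Genes of amino acid supply, which the transcription factor ATF4 turns on when amino acids run short or proteins misfold, were lower as a group. Of 29 tested members of the ATF4 and ER stress list 20 were called lower and 2 higher, with a median of -0.30, and the lower count was 18 to 21 when 1 library was left out. ASNS, which makes asparagine, stood at 82.5 and 90.7 CPM in DKO and 190.3 and 204 CPM in MAVSsg (-1.18 ± 0.059, adjusted p = 5.7e-14 in edgeR's test). PSAT1, an enzyme of serine synthesis, stood at 336 and 353 CPM against 596 and 651 CPM (-0.86 ± 0.048). CBS, which feeds homocysteine into cysteine synthesis, stood at 16.6 and 15.6 CPM against 34.2 and 34.2 CPM (-1.09 ± 0.078). In each of these 3 genes the replicates lay closer together than the lines. The mitochondrial folate enzyme gene MTHFD2 fell by 0.64 ± 0.05 on the log2 scale and the glutamine transporter gene SLC1A5 by 0.59 ± 0.053.

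ATF4 itself (-0.07, adjusted p = 0.44 in edgeR's test) and the death-linked factor gene DDIT3 (0.03, adjusted p = 0.88) were not called, and the chaperone gene HSPA5 was called lower by a small amount (-0.30); these 3 are named after their values were seen. The 2 members called higher were DDIT4 (0.21) and SESN2 (0.25), inhibitors of the growth kinase complex mTORC1. Of the 25 list members with a promoter entry 0 held the interferon response element core in the 250 bases before the start, and the share over tested genes, 3.59%, is itself small.

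Extracellular matrix genes were higher. Of 33 tested members of the matrix and TGF-beta list 16 were called higher and 2 lower, with a median of 0.32, and the higher count was 14 to 17 when 1 library was left out. FN1, fibronectin, stood at 164 and 159 CPM in DKO and 66.2 and 63.9 CPM in MAVSsg (1.31 ± 0.055, adjusted p = 1.6e-15 in edgeR's test). THBS1, thrombospondin, stood at 134 and 128 CPM against 51.0 and 48.7 CPM (1.39 ± 0.059). In both genes the replicates lay closer together than the lines. The collagen gene COL12A1 rose by 0.71 ± 0.069. The 2 members that were lower were COL17A1 (-0.53), a collagen of the epithelial anchor, and PLAUR (-0.40), the urokinase receptor.

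The list of epithelial and mesenchymal state held calls in both directions, 5 higher and 2 lower of 18. Over all tested genes the shares were 7.93% higher and 8.21% lower. The mesenchymal cadherin gene CDH2 stood at 18.1 and 21.9 CPM in DKO and 8.69 and 10.9 CPM in MAVSsg (1.05 ± 0.12), and AXL, a receptor kinase, at 98.4 and 90.3 CPM against 69.3 and 70.1 CPM (0.44 ± 0.055). The intermediate filament gene VIM rose by 0.34 ± 0.051. Of the epithelial genes, the tight junction gene OCLN fell by 0.62 ± 0.11 on the log2 scale, and the splicing regulator ESRP1 had 5 and 7 counts in DKO and 24 and 21 in MAVSsg. CDH1, epithelial cadherin, named after its values were seen, stood at 51.2 and 52.5 CPM against 56.4 and 59.7 CPM and was not called (-0.16, adjusted p = 0.059 in edgeR's test). Of 15 stromal and endothelial markers 6 were tested and 3 called higher: FAP (0.86 ± 0.12), DCN (0.48 ± 0.094) and TAGLN (0.70 ± 0.23, lost without MAVSsg replicate 1, adjusted p = 0.15, or replicate 2, 0.15, or DKO replicate 1, 0.23). Their summed level was 55.5 and 59.4 CPM in DKO and 43.8 and 41.8 CPM in MAVSsg. The libraries are labelled as a cell line, and how these markers bear on the matrix result was not tested. The endothelial markers KDR and CLDN5 and the fibroblast collagen gene COL1A2 had 0 counts in these 4 libraries. The 3 tested members that were not called, named after their values were seen, were present: LUM, a matrix proteoglycan, had 348 and 557 counts in DKO and 399 and 251 in MAVSsg, the smooth muscle actin gene ACTA2 104 and 159 against 104 and 59, and the endothelial adhesion gene PECAM1 49 and 82 against 65 and 29.

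**Figure D3:**
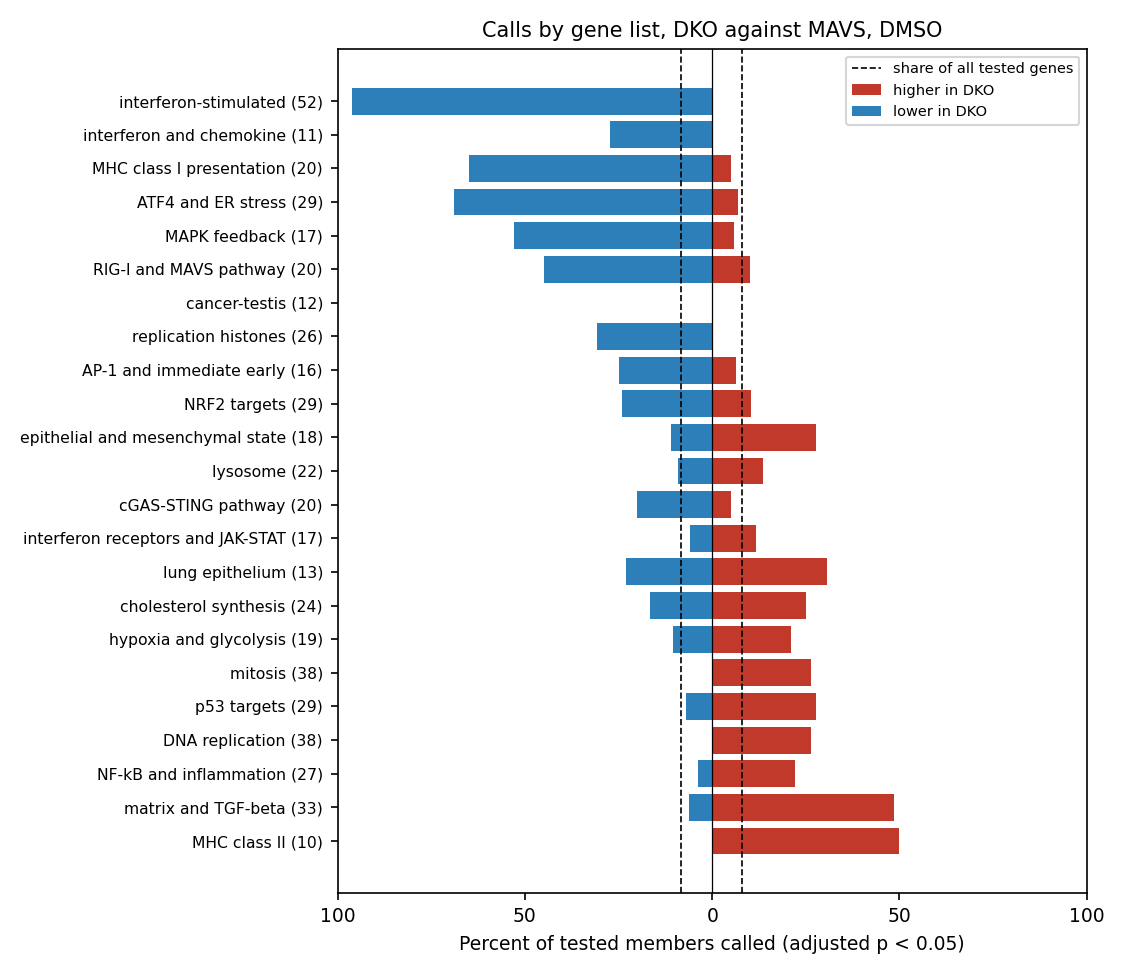
Share of tested members of each gene list called higher (red) or lower (blue) in DKO, in percent (x axis), for the lists with at least 10 tested members (y axis, number tested in brackets), ordered by median log2 fold change. The dashed lines are the shares over all tested genes, 7.93% and 8.21%.

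Most proliferation genes were not called, but the calls in the DNA replication and mitosis lists were all higher. Over all tested genes 7.93% were called higher and 8.21% lower. In the DNA replication list 10 of 38 were higher and 0 lower (median 0.17), and 5 were higher without MAVSsg replicate 2. MCM4, a subunit of the replicative helicase, stood at 323 and 326 CPM in DKO and 244 and 242 CPM in MAVSsg (0.42 ± 0.043, adjusted p = 6.9e-08 in edgeR's test), and TYMS, which makes thymidylate, rose by 0.40 ± 0.047. In the mitosis list 10 of 38 were higher and 0 lower (median 0.09), and 4 were higher without DKO replicate 2 and 5 without MAVSsg replicate 1. MKI67 stood at 839.6 and 903 CPM against 694 and 756 CPM (0.27 ± 0.047), and the DKO replicates of CENPF, 439.5 and 524 CPM, stood further apart than the MAVSsg ones, 369.7 and 409 CPM (0.31 ± 0.06). Of 26 replication histone genes 8 were lower and 0 higher, and 3 were lower without DKO replicate 2 or MAVSsg replicate 1 and 4 without MAVSsg replicate 2. Poly(A) RNA holds only part of these transcripts, and near-identical copies may share reads.

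Feedback genes of the MAP kinase cascade were lower, with 9 of 17 called lower and 1 higher (median -0.26). DUSP6, the phosphatase that switches off ERK, stood at 18.7 and 18.2 CPM in DKO and 28.8 and 29.8 CPM in MAVSsg (-0.67 ± 0.076, adjusted p = 3.8e-07 in edgeR's test). The transcription factor gene ETV5 stood at 92.3 and 93.1 CPM against 126 and 133 CPM (-0.48 ± 0.051), and ETV4 fell by 0.59 ± 0.088 on the log2 scale. Of the immediate early genes 4 of 16 were lower, and 1 higher (median -0.11). EGR1, at 1.64 and 1.64 CPM in DKO and 3.61 and 2.89 CPM in MAVSsg, kept its call under every alternative run, while FOS, FOSB, IER2 and JUN lost theirs without MAVSsg replicate 1 (adjusted p = 0.25, 0.5, 0.1 and 0.28). The p53 list held 8 higher and 2 lower of 29: ZMAT3, an RNA-binding target of p53, stood at 116 and 121 CPM against 66.4 and 66.3 CPM (0.84 ± 0.053), and the death receptor gene TNFRSF10B fell by 0.45 ± 0.044 on the log2 scale. CDKN1A (0.11) and MDM2 (-0.09), named after their values were seen, were not called.

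Of 27 NF-kB and inflammation genes 6 were higher and 1 lower (median 0.17). The cytokine gene IL6 stood at 30.4 and 30.6 CPM in DKO and 14.8 and 15.02 CPM in MAVSsg (1.03 ± 0.07, adjusted p = 3.6e-11 in edgeR's test). BIRC3, an inhibitor of apoptosis, rose by 0.41 ± 0.053 and the adaptor gene TRAF1 by 0.94 ± 0.15, while the iron-binding lipocalin gene LCN2 fell by 0.83 ± 0.11 on the log2 scale. CXCL8, which attracts neutrophils, stood at 16.2 and 16.8 CPM against 14.2 and 11.8 CPM (0.33 ± 0.083), and its call was lost without MAVSsg replicate 2 (adjusted p = 0.15).

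Metabolic and lineage lists held calls in both directions, as did all tested genes (7.93% called higher and 8.21% lower). Of 24 cholesterol synthesis genes 6 were higher and 4 lower (median 0.05). HMGCS1, an early enzyme of the pathway, stood at 536 and 570 CPM in DKO and 399.9 and 413 CPM in MAVSsg (0.44 ± 0.043), while STARD4, a sterol carrier, fell by 0.46 ± 0.052 on the log2 scale. Of 29 targets of NRF2, the factor of the oxidative stress response, 3 were higher and 7 lower (median -0.05), and 2 were lower with only the groups compared in the fit. The reductase gene AKR1B10 rose by 0.51 ± 0.04. Of 19 hypoxia and glycolysis genes 4 were higher and 2 lower, with the glycolysis regulator PFKFB3 at 95.2 and 89.1 CPM against 52.7 and 54.2 CPM (0.79 ± 0.054). Of 22 lysosome genes 3 were higher and 2 lower, with the membrane glycoprotein gene GPNMB at 8.45 and 8.74 CPM against 3.89 and 4.26 CPM (1.08 ± 0.16).

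Of 13 tested lung epithelium genes 4 were higher and 3 lower. The mucin gene MUC16 stood at 125 and 123 CPM in DKO and 79.0 and 77.8 CPM in MAVSsg (0.66 ± 0.052), and the airway mucin gene MUC5B at 30.2 and 23.3 CPM against 44.7 and 39.6 CPM (-0.67 ± 0.1). Neuroendocrine markers held 1 call of 6, NCAM1, lower by a log2 fold change of -0.45 ± 0.13 and lost without MAVSsg replicate 1 (adjusted p = 0.13) or DKO replicate 2 (0.15). Of 12 tested cancer-testis genes 0 were called by edgeR, DESeq2 or limma-voom, and 3 had an unadjusted p under 0.05 in edgeR. MAGEA6, whose near copies may share reads, stood at 39.2 and 36.8 CPM against 39.3 and 37.4 CPM. Among 9 genes that restrict repeats, 1 was called, the DNA methyltransferase gene DNMT1 (0.15 ± 0.052), and it lost the call without each of the 4 libraries in turn (adjusted p = 0.055 without DKO replicate 1, 0.21 without DKO replicate 2, 0.29 without MAVSsg replicate 1 and 0.096 without MAVSsg replicate 2).

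The largest rises were smaller than the largest falls. Of the 12 largest among protein-coding genes averaging 1 CPM or more, RAB3B, a small GTPase of vesicle release, had the smallest adjusted p and stood at 106 and 107 CPM in DKO and 39.6 and 36.8 CPM in MAVSsg (1.48 ± 0.061, adjusted p = 1.1e-15 in edgeR's test). IL31RA, a chain of the interleukin 31 receptor, had the highest log2 fold change, 1.93 ± 0.3, at 2.68 and 2.998 CPM against 0.685 and 0.812 CPM. MYL9, a myosin light chain, and MICAL2, an actin-oxidising enzyme, rose by 1.46 ± 0.27 and 1.45 ± 0.17. Another 7 were CHST9, C2orf16, ALDH1A3, GNG2, CCDC78, AK5 and TMEM52B, at 1.42 to 1.82; CHST9 lost its call without MAVSsg replicate 1 (adjusted p = 0.061) and GNG2 without MAVSsg replicate 2 (0.09) or DKO replicate 2 (0.064).

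Over all genes 2897 (16.1%) were called, 1423 higher and 1474 lower, and 298 of them (1.66%) by at least 2-fold, 136 higher (0.758%) and 162 lower (0.903%). Of those 162, 39 were interferon-stimulated list members and 123 were not. Of 14113 protein-coding genes 1315 were higher and 1389 lower, and of 2574 lncRNA genes 82 were higher and 62 lower. Without MAVSsg replicate 1 the total was 1761 and without replicate 2 it was 1797, with the lone library assumed to vary like the other groups.

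The same 2 lines were also compared after the MPS1i pulse, in 4 other libraries. Both comparisons share the fit's estimate of scatter. There 4909 genes (27.3%) were called. Of the DMSO calls 1575 were called again in the same direction (54.4% of the DMSO calls and 32.1% of the MPS1i calls), and 143 in the opposite one. The difference between the 2 comparisons was itself called for 2043 genes (11.4%), 893 higher (4.97%) and 1150 lower (6.41%). It was lower for 49 of 52 interferon-stimulated genes, whose median was -1.84 under DMSO and -3.76 after MPS1i. OAS3 stood at -2.04 under DMSO and -4.13 after MPS1i, a difference of -2.09 ± 0.064 (adjusted p = 2e-17 in edgeR's test). The MHC class I difference was lower for 19 of 20 genes, at medians of -0.40 and -1.63.

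IL6 changed direction between treatments. It had a log2 fold change of 1.03 under DMSO and -1.39 after MPS1i, where IL6 stood at 35.9 and 36.9 CPM in DKO and 95.6 and 95.3 CPM in MAVSsg (difference -2.42 ± 0.092, adjusted p = 5.7e-16 in edgeR's test). In the NF-kB list 22 of 27 genes were lower after MPS1i (14.2% of all genes were) and the difference was lower for 19. The ATF4 genes went the other way: the difference was higher for 18 of 29 and lower for 5. ASNS stood at 49.1 and 47.1 CPM in DKO and 52.5 and 51.3 CPM in MAVSsg after MPS1i, a log2 fold change of -0.11 ± 0.064 against -1.18 under DMSO, and PSAT1 was higher in DKO there (0.36 ± 0.049). For the matrix list the difference was lower for 11 of 33, with FN1 at 0.58 ± 0.052 after MPS1i against 1.31 under DMSO. For DNA replication it was lower for 15 of 38, and MCM4 stood at -0.12 ± 0.043 after MPS1i.

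**Figure D4:**
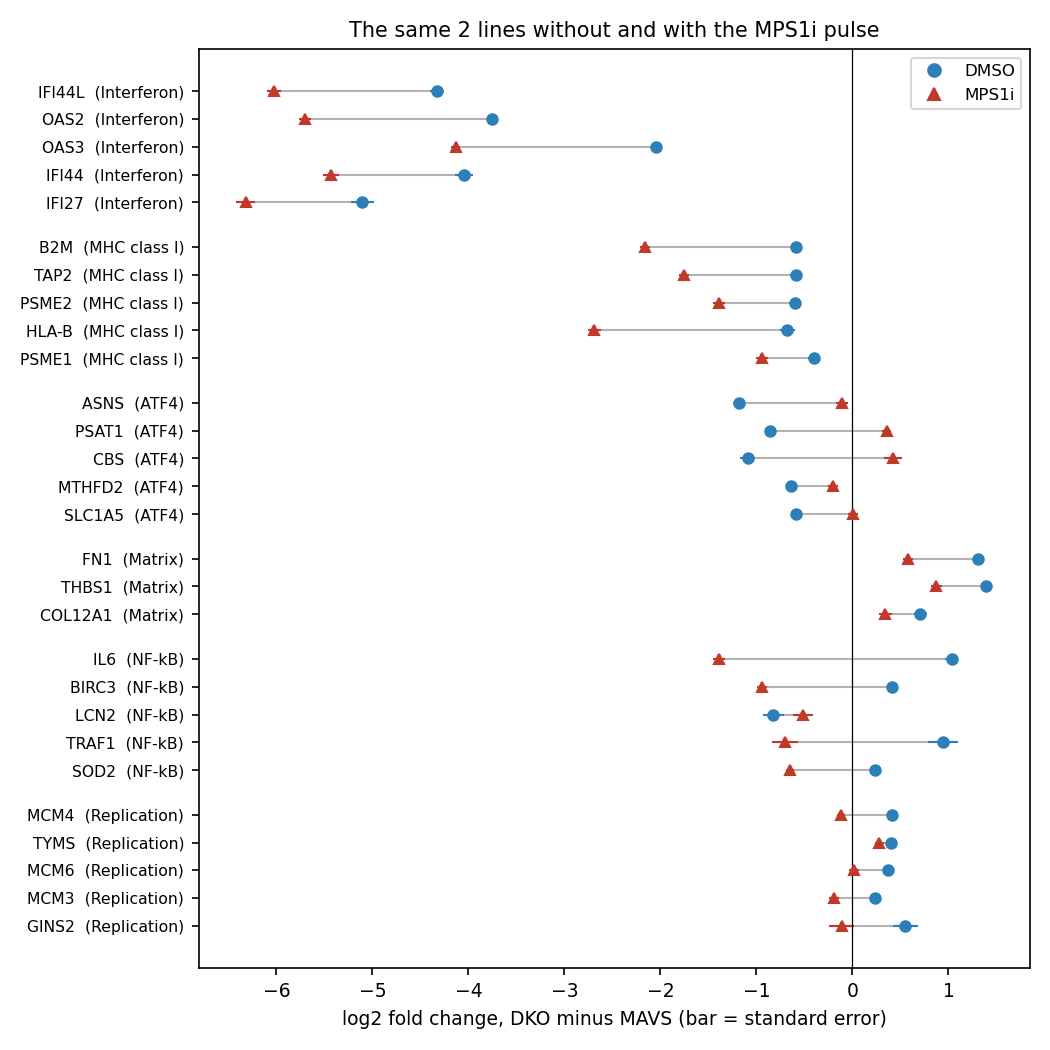
Log2 fold change of DKO minus MAVSsg (x axis, bars are standard errors) of 28 named genes (y axis) under DMSO (circles) and after MPS1i (triangles). Interferon and MHC class I genes lie further below 0 after MPS1i, ATF4 and matrix genes lie nearer to 0 than under DMSO, and 4 NF-kB genes cross from above 0 to below it.

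Addition of a STING guide can also be compared without the MAVS guide, as STINGsg against SCR under DMSO, in 4 libraries of other lines. There 1826 genes (10.2%) were called, 844 higher (4.70%) and 982 lower (5.47%). Both comparisons called 982 genes in the same direction (33.9% of the DKO against MAVSsg calls and 53.8% of the others), 426 higher and 556 lower, and 16 in opposite ones. STING1 itself stood at 3.78 and 3.70 CPM in STINGsg and 8.25 and 8.30 CPM in SCR, a log2 fold change of -1.14 ± 0.12 against -1.09 in DKO, and the difference between the 2 was not called (0.05 ± 0.17, adjusted p = 0.94 in edgeR's test). The difference was called for 416 genes (2.32%), 187 higher (1.04%) and 229 lower (1.28%), with counts of 217 without MAVSsg replicate 1, 893 without DKO replicate 1, 243 without STINGsg replicate 1 and 241 without STINGsg replicate 2.

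The interferon-stimulated fall was larger in DKO against MAVSsg than in STINGsg against SCR. The list's median was -1.84 in DKO against MAVSsg and -1.02 in STINGsg against SCR, 43 of 52 members were lower in the second, and the difference was lower for 33 and higher for 0. IFI27 stood at 5.71 and 5.79 CPM in STINGsg and 30.4 and 28.8 CPM in SCR (-2.37 ± 0.096), and the difference was -2.74 ± 0.19 (adjusted p = 7.6e-10 in edgeR's test). Levels of IFI27 in DKO were below those in STINGsg, and levels in MAVSsg were above those in SCR. MX1 (difference -2.25 ± 0.12), IFI44L (-1.92 ± 0.099) and OAS2 (-1.83 ± 0.086) had the same order of the 4 lines. CCL5 fell by 3.71 ± 0.1 on the log2 scale in STINGsg against SCR, and its difference was not called (-0.54 ± 0.18, adjusted p = 0.12).

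Other groups differed in part between the 2 comparisons. The ATF4 list held 16 lower of 29 in STINGsg against SCR, with ASNS at -0.57 ± 0.057, and the difference was lower for 8 and higher for 2. The matrix list held 10 higher of 33, with FN1 at 0.69 ± 0.057, and the difference was higher for 9. The mitosis list held 13 lower and 0 higher in STINGsg against SCR, and the difference was higher for 15 of 38, with MKI67 at -0.21 ± 0.047 there and 0.27 in DKO against MAVSsg. MHC class II held 6 higher of 10 there (median 1.16), and the difference was lower for 2 and higher for 0. HLA-DRA stood at 1.22 and 1.36 CPM in SCR and 3.90 and 4.28 CPM in STINGsg, a log2 fold change of 1.67 ± 0.19, and its difference was -0.93 ± 0.24 (adjusted p = 0.041 in edgeR's test). NEAT1, a nuclear lncRNA, stood at 343 and 331 CPM in DKO, 366 and 367 CPM in MAVSsg, 322 and 306 CPM in SCR and 524 and 521 CPM in STINGsg, so that STINGsg stood apart (difference -0.86 ± 0.062, adjusted p = 1.7e-09 in edgeR's test).

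**Figure D5:**
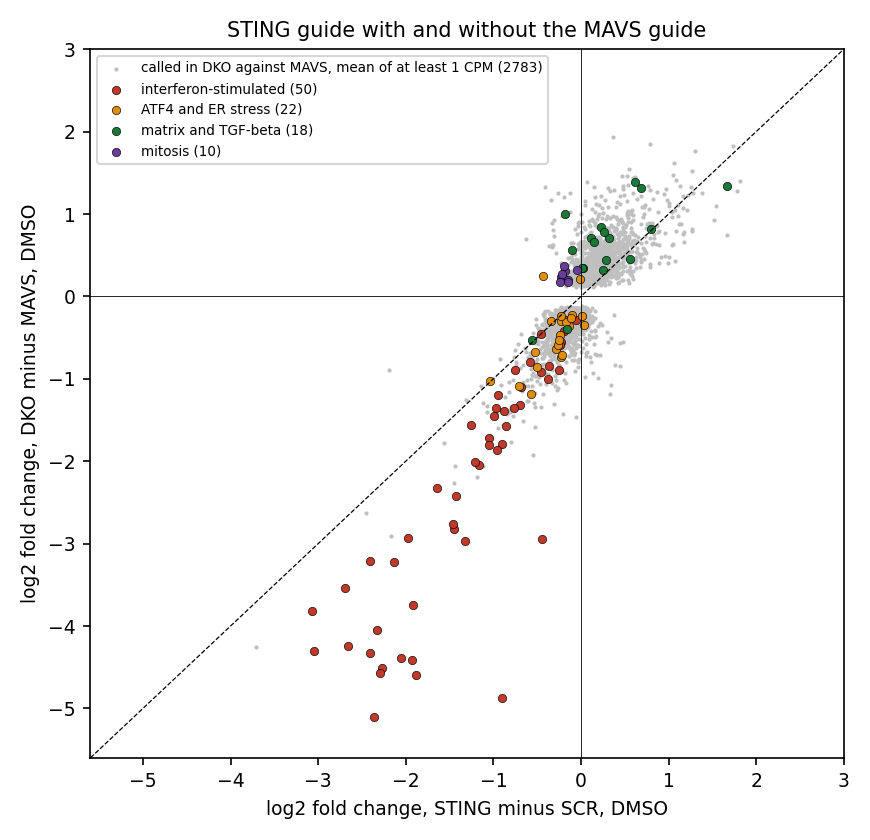
Log2 fold change of DKO minus MAVS (y axis) against STING minus SCR (x axis), both under DMSO, for genes called in the first with a mean of at least 1 CPM, with 4 lists in colour and the line of equality dashed. Most interferon-stimulated genes lie below the dashed line. The 10 mitosis genes lie above 0 on the y axis by selection, since only called genes are drawn and 28 of 38 mitosis genes were not called.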

How the data were processed

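Poly(A) RNA was sequenced from stranded libraries, per the labels' protocols. The deposited table holds raw counts per gene, with no normalization by the authors. Per the submitters' processing notes, Trim Galore, Trimmomatic, cutadapt, STAR and featureCounts were used with GRCh38/hg38; versions, strand setting and handling of multi-mapped reads are not given in the sources used here, so overlapping and near-identical genes may share reads. All 16 columns matched a library by name. In R 4.3.3, genes were kept by filterByExpr (minimum count 10, minimum total 15) and fitted in edgeR 4.0.16 (TMM, robust quasi-likelihood F-test, two-sided) with 1 mean per group over all 16 libraries, 8 residual degrees of freedom. CPM use TMM-scaled totals. Standard errors are the absolute log2 fold change over the square root of F. In data simulated for this comparison, with 17475 genes, changes were planted only in genes expected at 100 counts or more per library on average. Of 50 genes per fold, 92% were called at 1.5-fold, 100% at 2-fold and 98% at 8-fold. Recovery at lower counts was not tested. limma 3.58.1 and DESeq2 1.42.0 served as alternatives.

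Same-numbered replicates of the 2 groups deviated together with a correlation of 0.14, but over all 28 pairs of groups the median was 0.02, and the labels do not pair them, so no pairing was used. Members, lists and tests were chosen with earlier results of these data known. Named genes were a fixed set, the 12 largest rises and falls, up to 5 called members per list by adjusted p, and 6 genes per difference test. Others are said to be named after their values were seen, and a few items are not reported here. The counting interval of GBP4 and the floors (3 counts per library) cover counting error only. The intervals of log2 fold changes rest on the standard errors of edgeR's fit, so they also include the estimated scatter between libraries.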

Additional observations from a re-analysis of the deposited data

Results flagged for a closer look

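The difference of the lines depended on the treatment for 2043 genes, by an interaction term in edgeR's fit. The genes with the smallest adjusted p were OAS3 (-2.09), PARP14 (-1.82), RNF213 (-1.59), TRIM22 (-2.96), DDX60L (-2.20) and IL6 (-2.42), as differences of log2 fold changes, MPS1i minus DMSO. RNF213, a large ubiquitin ligase, had a log2 fold change of -0.36 under DMSO and -1.95 after MPS1i. TRIM22, an antiviral ubiquitin ligase, showed the largest gap of the 6: its fall under DMSO was -0.42 and lost its call without MAVSsg replicate 1 (adjusted p = 0.095), while after MPS1i it was -3.38.

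The log2 fold change of DKO against MAVSsg differed from that of STINGsg against SCR for 416 genes, by the same kind of term. These are separate lines, so the term cannot tell the guides apart from other differences between the lines. The genes with the smallest adjusted p were OAS2 (-1.83), IFI44L (-1.92), IFI27 (-2.74), OAS3 (-0.88), NEAT1 (-0.86) and MX1 (-2.25), in the DMSO libraries. In all 6 the log2 fold change is more negative in DKO against MAVSsg than in STINGsg against SCR. NEAT1 differs from the other 5 in that it was higher in STINGsg than in SCR.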

How the results depend on the processing

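Called genes in DKO against MAVSsg numbered 1469 with only the groups compared in the fit (747 higher, 722 lower) and 1761 to 2796 with 1 library left out (827 to 1324 higher, 931 to 1476 lower), and 298 with a 2-fold limit added. The MPS1i minus DMSO difference ran from 1434 to 2380 with 1 library left out. The difference with and without the MAVS guide was 231 with only the groups compared (62 higher), 331 higher without the filter on low counts, and 217 to 893 with 1 library left out (61 to 528 higher, 156 to 365 lower). The cause of these shifts was not tested. DESeq2 called 2431 genes and limma-voom 2752 in the first comparison. With the replicate number as a block, the 3 tests called 2922, 2029 and 423 genes, of which 2837, 1976 and 405 were shared in the same direction. Of 139 named genes called, 108 stayed called under every alternative run, and of 9 not called, 2 were called under at least 1 (CGAS and NEAT1). No named gene that was called, in the main test or in an alternative run, changed direction between them. This does not cover genes that were not called. For IRF3, DKO replicate 1 (18.2 CPM) lay above both MAVSsg libraries (16.2 and 15.4 CPM) and DKO replicate 2 (14.8 CPM) below both. Depth limits genes near 0 counts, such as the interferon genes.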

Other observations

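These groups were chosen after their values were seen and carry no test as groups. Of 21 cytosolic tRNA synthetase genes, which charge tRNAs with amino acids, 12 were lower and 1 higher in DKO than in MAVSsg under DMSO (median -0.25), and the MPS1i minus DMSO difference was higher for 12. SARS1, the seryl enzyme, stood at 93.5 and 91.4 CPM in DKO and 149 and 151 CPM in MAVSsg (-0.70 ± 0.053). WARS1, the tryptophanyl enzyme that interferon raises, moved the other way between treatments (-0.70 under DMSO and -1.52 after MPS1i). Of 18 contractile and adhesion cytoskeleton genes 9 were higher and 0 lower (median 0.26). MYLK, the kinase of myosin light chains, stood at 27.99 and 26.6 CPM in DKO and 10.6 and 11.6 CPM in MAVSsg (1.30 ± 0.1).

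Along the chromosomes, windows of 50 consecutive tested genes were described by their median. Of 16805 windows, 12 had a median at least 0.3 from the median of all genes, all of them higher and on chromosome 19. These 12 overlap one another in a single region and hold the same 8 genes called higher. The first of those with the highest median, 0.34, had 36 zinc finger genes named ZNF among its 50, 46 genes positive and 8 called higher. Its median was 0.07 after MPS1i and 0.14 in STINGsg against SCR under DMSO. On chromosome 5, which holds STING1, 110 of 859 tested genes were lower (12.8%) and 57 higher (6.64%), against 8.21% and 7.93% over all genes.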
